A study of Mus musculus with 8 samples.

Results

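The adult comparison set 2 hippocampal arrays of male mice whose dams had been given clothianidin against 2 arrays of male mice whose dams had been given vehicle, all at 10 weeks of age. These are 4 of the 8 arrays of the series, chosen by age and agent as labelled, and all 22206 transcript clusters (the units of the array, mostly 1 per gene) were compared. Clothianidin (CLO) was given to the dams by mouth at 65 mg/kg/day, the no-observed adverse effect level, from postnatal day 1 to day 4, so it was the dams that were dosed. The other 4 arrays hold the same vehicle and CLO groups at 3 weeks. Strain, litters and pooling are not given in the sources used here, nor whether the arrays are separate animals, so the p-values rest on a spread between arrays that may be technical only.

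Clothianidin is a neonicotinoid insecticide. It acts on nicotinic acetylcholine receptors, the ligand-gated cation channels that acetylcholine opens, and binds those of insects more tightly than those of mammals. In the hippocampus these receptors modulate transmitter release and the firing of interneurons, and cholinergic input shapes the maturation of its synapses in early postnatal life. The dentate gyrus goes on forming granule cells after birth, while the pyramidal cells of the CA fields are formed before it.

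No cluster passed the threshold of an adjusted p under 0.05 in limma at 10 weeks (0 of 22206, 0%), and the lowest adjusted p was 0.997. An unadjusted p under 0.05 in limma was reached by 820 clusters, 3.69% of those tested, where chance gives 1110. Of these, 339 were higher and 481 lower after CLO. All values below are log2 intensities, differences are CLO minus vehicle on the log2 scale with the standard error (SE) of the fit, and every gene named below had an adjusted p of at least 0.997 in limma. With 2 arrays against 2, an exact permutation test of a single gene cannot give a two-sided p below 0.333. The text therefore describes which arrays were high or low, and calls groups separated where both arrays of one lay above both arrays of the other.

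The 4 arrays had medians of 5.81 to 5.86, and the CLO and vehicle arrays correlated at r = 0.989 to 0.991 over clusters, against 0.988 within vehicle and 0.990 within CLO. Of the 9 hippocampal markers listed, 8 were found, and each lay at or above the 58.0th percentile of every array. Neurod6, a transcription factor of pyramidal cells, was highest in rank (97.4th percentile or above). For choroid plexus genes, described separately at the end, 1 array stood apart: the first CLO array alone read high. By count of clusters it did not. Clusters at least 1 log2 unit above the other 3 arrays numbered 58 and 86 in the vehicle arrays and 67 and 33 in the CLO arrays. Those at least 1 log2 unit below numbered 58 and 47 against 46 and 46. The first vehicle array stood farthest above the others for genes that include Lcn2, Dcn and Ptgds. List medians that 1 array decides, whichever array it is, are given without it.

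Separated groups were common among all clusters: 15.4% were higher and 15.3% lower in both CLO arrays. The direction depended on the level. Among the 4045 clusters with a mean level of at least 10, 20.3% were separated upward and 6.18% downward, while among the 11473 with a mean level under 6 the shares were 12.1% and 20.2%. After quantile normalisation, which gives all arrays 1 distribution, the shares were 12% and 12.3% at the high levels and 16.6% and 16.1% at the low levels. With each array centred on its median, 57.1% of all separated clusters were higher, against 50.2% as deposited, and 82.3% of those at the high levels, against 76.7%. Counts for lists are therefore also given after quantile normalisation, an alternative chosen for these counts after seeing the data. Each list count below is to be read beside the 15.4% upward and 15.3% downward over all clusters as deposited.

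**Figure D1:**
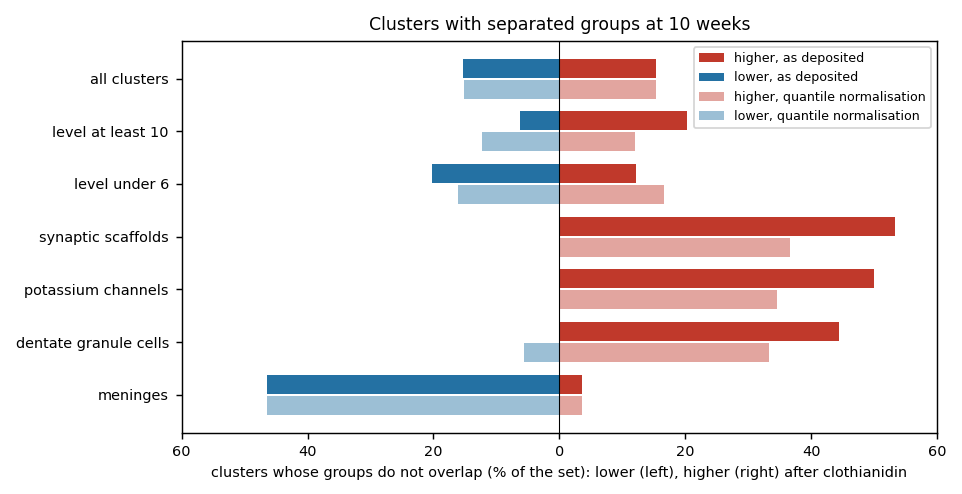
Share of each set (% of its clusters or genes) in which both CLO arrays lay above (right, red) or below (left, blue) both vehicle arrays at 10 weeks, as deposited (dark) and after quantile normalisation (pale). Quantile normalisation evens the 2 directions in the level classes, while the synaptic scaffold set then has 11 of 30 genes higher and 0 lower and the meningeal set 13 of 28 lower.

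The widest separations at levels at or above the median of 5.81 were found in genes of varied function. Kat8, the catalytic subunit of the MOF histone acetyltransferase, read 7.29 in both vehicle arrays and 8.19 and 8.17 in the CLO arrays, a difference of 0.89 ± 0.28 (SE). Both groups were tight, and the gap between them, 0.88, was about the difference itself. Mark2, a kinase of cell polarity and microtubules, read 5.86 and 5.79 in vehicle and 6.91 and 6.71 in CLO arrays (0.98 ± 0.29). Nr1d1, the clock repressor REV-ERB alpha, read 10.98 and 10.81 against 11.74 and 11.79 (0.87 ± 0.26). In each of these genes the CLO arrays lay close together and above both vehicle arrays.

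Prkcq, a protein kinase C isoform known best from T cells, read 8.44 and 8.28 in vehicle and 9.28 and 9.18 in CLO arrays. Dnaja2, an Hsp70 co-chaperone, read 8.57 and 8.50 against 9.30 and 9.47. Gusb, the lysosomal enzyme beta-glucuronidase, read 6.28 and 5.97 against 7.01 and 7.11. Gusb is one of 35 lysosomal genes, of which 6 were separated upward and 1 downward, and the median over that list was 0.00. After quantile normalisation the counts were 5 and 3, and leaving out an array gave medians of -0.08 to 0.10. The other genes of this group were Zfp976, Acot5 (an acyl-CoA thioesterase), Vps9d1, Poldip2, Prxl2b and Lrrc8d (a subunit of volume-regulated anion channels), with differences of 0.73 to 1.09. Lrrc8d was the member whose CLO arrays lay farthest apart, at 9.89 and 9.47 against 8.80 and 8.69 in vehicle.

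Among the lower genes Fmod, which encodes fibromodulin, a proteoglycan that binds collagen fibrils, had by far the widest gap. It read 8.27 and 8.22 in vehicle and 5.60 and 5.82 in CLO arrays, a difference of -2.54 ± 0.55. At 3 weeks Fmod read 8.14 and 7.62 in vehicle and 6.19 and 8.45 in CLO arrays, so only 1 CLO array of that age was low. Itga8, an integrin chain that binds matrix proteins, read 7.30 and 7.68 against 6.13 and 6.40 at 10 weeks (-1.23 ± 0.34). Socs6, of the suppressor of cytokine signalling family, read 8.06 and 7.70 against 6.81 and 6.29 (-1.33 ± 0.44). Both genes were low in each CLO array.

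Clrn1, a membrane protein gene of hair cells and photoreceptors, read 6.58 and 7.06 in vehicle and 5.50 and 5.65 in CLO arrays. Atg16l2, a homologue of the autophagy gene Atg16l1, read 10.68 and 10.98 against 9.54 and 9.98. Dhx40, a helicase of the DEAH box family, read 10.25 and 10.22 against 9.53 and 9.55. The members of each group were within 0.03 of each other for Dhx40, and within 0.48 for Clrn1. The remaining lower genes were Rsrp1, Zcchc4, Alkbh3 (a demethylase of damaged nucleic acids), Dennd6b, Tspan32 and Ncbp2 (the small subunit of the nuclear cap-binding complex), with differences of -1.12 to -0.80.

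**Figure D2:**
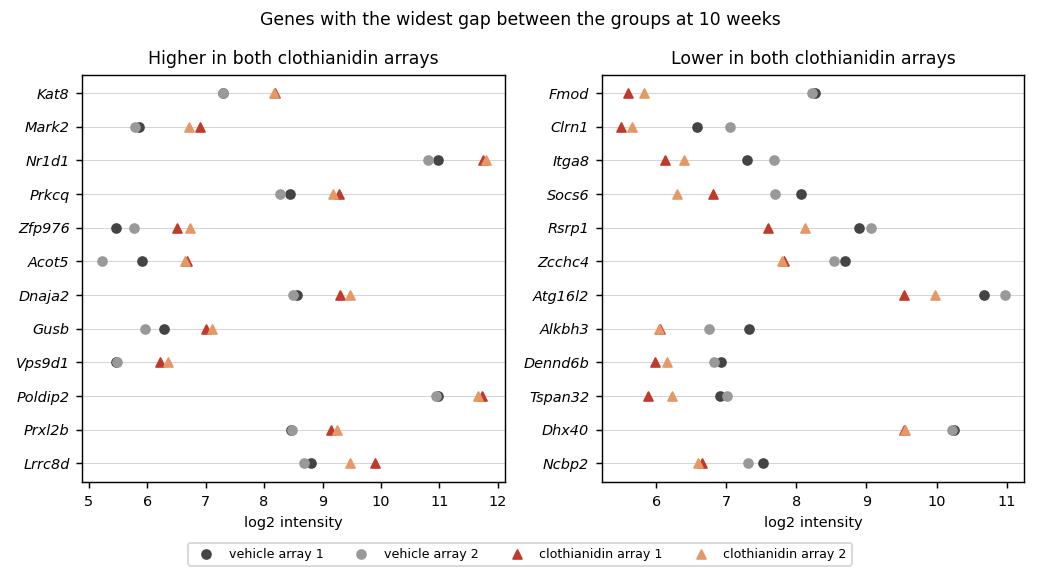
Log2 intensity (horizontal axis) of the 12 genes higher (left) and the 12 lower (right) after CLO with the widest gap between the groups at 10 weeks, ordered by gap. Circles are the 2 vehicle arrays and triangles the 2 CLO arrays. Fmod stands out with a gap of 2.40, while every other gene has a gap of 0.66 to 0.93.

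The receptor that clothianidin acts on was measured through 24 genes of nicotinic subunits and their modulators. Of these, 11 were higher and 13 lower after CLO, with 5 separated in each direction (4 and 6 after quantile normalisation) and a median of -0.06, which took either sign when an array was left out (-0.08 to 0.07). The separated shares as deposited were 20.8% each way, beside 15.4% upward and 15.3% downward for all clusters. Of the 24 genes, 13 had a level under 6, with 2 separated upward and all 5 downward among them. Over all clusters under that level the shares were 12.1% upward and 20.2% downward. Chrna7, the subunit of the homomeric receptor that is abundant in the hippocampus, read 9.83 and 10.10 in vehicle and 10.26 and 10.36 in CLO arrays (0.34 ± 0.34). Chrna4, which with Chrnb2 forms the most common high-affinity receptor in brain, read 12.17 and 11.94 against 11.18 and 12.81, so the vehicle arrays lay between the CLO arrays. Chrnb2 read 10.36 and 10.66 against 10.41 and 10.76, with overlap.

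Lypd6b, a modulator of the receptor of the Ly6 family, read 6.45 and 5.96 in vehicle and 5.80 and 5.60 in CLO arrays. Chrna9, a subunit of hair cell receptors, read 4.30 and 4.61 against 3.88 and 4.01. Chrna1 (2.93 and 3.13 against 3.38 and 3.45), Chrnd and Chrng, subunits of the muscle receptor, were separated too. These muscle genes read below the lower quartile of all 4 arrays, a range in which signal cannot be told from background here.

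Of 12 muscarinic receptor and other cholinergic genes, 2 were separated upward and 3 downward (2 and 2 after quantile normalisation). Chrm1, the main muscarinic receptor of pyramidal cells, read 12.92 and 13.39 in vehicle and 13.80 and 13.70 in CLO arrays (0.59 ± 0.31). Chrm2, an inhibitory receptor of cholinergic terminals and interneurons, read 6.56 and 6.50 against 5.95 and 5.63 (-0.74 ± 0.27). Chrm3 (8.78 and 8.99 against 9.22 and 9.33) lay with Chrm1, and Chrm5 (7.38 and 6.92 against 5.99 and 6.81) with Chrm2.

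At the glutamatergic synapse, the genes of postsynaptic scaffolds and their partners were mostly higher after CLO. Of 30 measured, 26 were higher and 4 lower, 16 were separated upward and 0 downward, and the median was 0.23, against 0.01 over all clusters. Many of them are strongly expressed: 13 of the 21 with a level of at least 10 were separated upward, beside 20.3% of all clusters at that level. After quantile normalisation 11 of the 30 were separated upward and 0 downward, and the median was 0.17.

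Dlg4, which encodes PSD-95, the main scaffold of the postsynaptic density, read 16.25 and 17.16 in vehicle and 17.39 and 17.50 in CLO arrays (0.74 ± 0.37). Dlgap1, which links PSD-95 to Shank proteins, read 15.27 and 14.95 against 15.97 and 15.86 (0.81 ± 0.34). Shank3, the scaffold beneath them, read 7.08 and 7.76 against 7.96 and 8.82 (0.97 ± 0.49). The vehicle arrays differed among themselves by 0.91 for Dlg4 and by 0.68 for Shank3, so the gap between the groups, 0.23 and 0.20, was the smaller distance.

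Grasp, a scaffold of group I metabotropic glutamate receptors, read 11.33 and 12.18 in vehicle and 12.62 and 12.75 in CLO arrays. Baiap2, an adaptor between membrane and actin in spines, read 11.00 and 11.21 against 11.56 and 11.54. Dlgap4 read 10.00 and 9.95 against 10.48 and 10.20. Over the list, the second CLO array held the highest value in 17 of 30 genes and the first vehicle array the lowest in 18. Without the second CLO array the median was 0.15, and without the first it was 0.36.

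The receptors anchored there followed in smaller numbers. Of 26 genes of AMPA, kainate and NMDA receptors and their auxiliary subunits, 18 were higher and 8 lower, with a median of 0.15. In the list 7 were separated upward and 0 downward. All 7 were among the 17 with a level of at least 10, where 20.3% of all clusters were separated upward. After quantile normalisation the counts were 7 and 2 and the median 0.09. Gria1, an AMPA receptor subunit, read 17.16 and 17.35 in vehicle and 17.65 and 17.59 in CLO arrays. Gria3, another, read 14.12 and 13.94 against 14.43 and 14.40. Grin2b, the NMDA receptor subunit prominent in early life, read 13.68 and 13.73 against 14.34 and 13.99. The gap between the groups was 0.24 to 0.28 for these 3 subunits, and Shisa6, an auxiliary subunit of AMPA receptors, had the largest of those named (12.54 and 13.12 against 13.73 and 13.45, 0.76 ± 0.51). Neto1 and Shisa9, auxiliary subunits as well, differed by 0.24 and 0.37.

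Potassium channel genes, which set resting potential and firing, were higher in 22 of 26 cases. Of all 26 channels 13 (50%) were separated upward and 0 downward, beside 15.4% and 15.3% of all clusters. At a level of at least 10, 7 of 14 were separated upward, beside 20.3% of all clusters there. The list median was 0.29. After quantile normalisation 9 channels were separated upward and 0 downward and the median was 0.22, and without the second CLO array the median was 0.18. Kcnq3, a subunit of the M current that acetylcholine suppresses through muscarinic receptors, read 11.48 and 11.29 in vehicle and 11.97 and 11.90 in CLO arrays (0.55 ± 0.34). Kcnj4, an inward rectifier, read 6.29 and 6.92 against 7.49 and 7.37 (0.82 ± 0.29). Kcnj6, a G protein-gated inward rectifier, read 10.43 and 10.95 against 11.20 and 11.18. The CLO arrays agreed within 0.12 for each of these, and the vehicle arrays of both inward rectifiers lay farther apart.

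Kcnh7, of the ether-a-go-go-related family, read 9.28 and 9.31 in vehicle and 9.70 and 9.84 in CLO arrays. Kcnk1, a 2-pore domain channel, read 11.56 and 11.52 against 12.11 and 11.88. Kcnd2, of the dendritic A-type current, read 11.79 and 11.84 against 12.15 and 12.05. The 4 lower members, Kcnb2, Kcnc2, Kcnn3 and Kcnt1, were not separated and differed by -0.31 to -0.06.

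**Figure D3:**
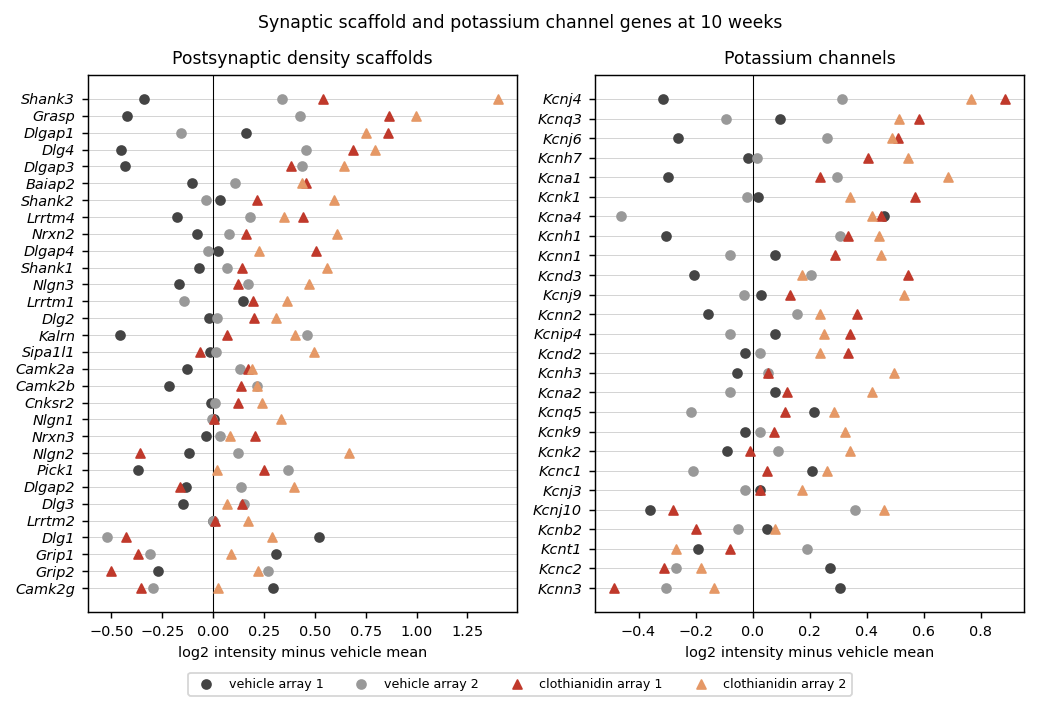
Log2 intensity minus the mean of the 2 vehicle arrays (horizontal axis) for every measured postsynaptic scaffold gene (left) and potassium channel gene (right), ordered by difference. Circles are vehicle and triangles CLO arrays at 10 weeks. Triangles lie right of both circles in 16 of 30 and 13 of 26 genes and left of both in 0 of each set.

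Axon guidance and adhesion genes were higher in 33 of 41 cases, with 12 separated upward and 4 downward and a median of 0.14 (7 and 4 after quantile normalisation). At a level of at least 10, 7 of 20 were separated upward, beside 20.3% of all clusters there. Leaving out the second vehicle array gave a median of 0.27, and leaving out the first CLO array gave 0.30. Islr2, a membrane protein of axon growth, read 7.52 and 8.41 in vehicle and 8.84 and 9.35 in CLO arrays (1.13 ± 0.36). Epha4, an ephrin receptor of dendritic spines, read 13.90 and 14.57 against 14.90 and 14.81. Efna5, an ephrin ligand, went the other way, at 7.38 and 7.50 against 7.03 and 7.08.

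Among the cell types of the hippocampus, genes of dentate granule cells were higher in 17 of 18 cases, with 8 separated upward and 0 downward and a median of 0.43. The 8 are 44.4% of the list, beside 15.4% of all clusters. In bulk tissue, more cells of a type and more RNA per cell cannot be told apart. Plk5, a polo-like kinase of neurons, read 6.02 and 6.41 in vehicle and 7.02 and 7.21 in CLO arrays (0.90 ± 0.32). Prox1, the transcription factor that defines granule cells, read 11.50 and 12.29 against 12.66 and 12.33, and Sipa1l2, a neuronal GTPase activator, read 8.06 and 8.09 against 8.50 and 8.33. Pdzd2 and Lct differed by 0.36 and 0.43 and were separated.

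The first CLO array held the highest value in 12 of these 18 genes. Stxbp6, a SNARE-binding protein gene, read 11.42 and 11.36 in vehicle and 12.47 and 11.35 in CLO arrays. Npnt, a matrix protein gene, read 9.08 and 9.28 against 10.17 and 9.06. For both, only the first CLO array stood above vehicle. The list median was 0.14 when it was left out, 0.20 with the Ttr level as a covariate and 0.34 after quantile normalisation, with 6 separated upward and 1 downward.

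In the same array 2 genes of deep neighbouring cortex were lowest: Cplx3 read 6.65 and 6.40 in vehicle and 4.67 and 6.05 in CLO arrays, and Ctgf (now Ccn2) read 7.05 and 6.58 against 5.09 and 6.50. The list of neighbouring cortex and subiculum had means of 9.56 and 9.18 in vehicle and 9.03 and 9.49 in CLO arrays over its 20 genes, with 1 separated upward and 4 downward (1 and 5 after quantile normalisation). Its median was 0.04, and it was -0.38 without the second CLO array and -0.13 without the second vehicle array. High choroid plexus genes in this array also coincide with the dentate values, and the part of either in them was not tested.

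Of 14 genes of CA1 pyramidal cells 3 were separated upward and 0 downward, with a median of 0.04. After quantile normalisation the counts were 2 and 1 and the median -0.03, and leaving out an array gave 0.04 to 0.13. Of 13 genes of CA3 cells 2 were separated in each direction (2 upward and 1 downward after quantile normalisation), with a median of 0.12, but it was -0.01 without the first CLO array and 0.27 without the second. The CA3 shares as deposited were 15.4% each way, beside 15.4% and 15.3% of all clusters. Of 21 interneuron genes 2 were separated upward and 1 downward, with a median of 0.02, against 2 in each direction and -0.06 after quantile normalisation, and with -0.08 to 0.11 when an array was left out. Of 21 genes of neurogenesis 4 were separated upward and 1 downward under both scalings, and the median of 0.06 was 0.14 without the second CLO array. The medians of the CA1, CA3 and interneuron lists thus took either sign with the scaling or with 1 array left out. Man1a, a mannosidase of the CA1 list, read 10.18 and 10.38 in vehicle and 10.95 and 10.90 in CLO arrays. In the CA2 list Amigo2, an adhesion protein that marks this field, read 6.89 and 6.75 against 6.28 and 6.04, while 2 of its 11 genes were separated upward and 3 downward under both scalings.

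Of 17 astrocyte genes 3 were separated upward and 0 downward, but after quantile normalisation 2 were separated upward and 3 downward. Of 16 myelin genes 4 were separated upward and 0 downward under both scalings. Their median was 0.17, and it was 0.09 after quantile normalisation and 0.01 without the second CLO array. At a level of at least 10, 2 of 14 astrocyte genes and 3 of 10 myelin genes were separated upward and 0 downward. Over all clusters at that level the shares were 20.3% and 6.18%. Of 21 microglial genes 4 were separated upward and 1 downward (4 and 2 after quantile normalisation). Genes of oligodendrocyte precursors were higher in 11 of 13 cases, with 4 separated upward and 1 downward (3 and 1 after quantile normalisation). Their median was 0.20, and it was 0.17 after quantile normalisation and 0.13 without the second CLO array. Cldn11, a tight junction protein of myelin, read 10.74 and 10.90 in vehicle and 11.31 and 11.43 in CLO arrays. Bcas1, a gene of the precursor list that marks oligodendrocytes as they begin to form myelin, read 11.02 and 11.29 against 11.79 and 11.88 (0.68 ± 0.31). Itgam, the complement receptor chain CD11b of microglia, read 7.88 and 7.81 against 8.40 and 8.45, and H2-Ab1, an MHC class II chain, read 5.25 and 5.11 against 4.26 and 4.55, so these 2 genes of the microglial list lay on opposite sides.

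Genes induced by neuronal activity were mixed, with 15 of 34 higher and 19 lower, 5 separated upward and 7 downward (3 and 7 after quantile normalisation), and a median of -0.09. The median was -0.04 after quantile normalisation, -0.16 without the first vehicle array and 0.07 without the second. Npas4, an activity-dependent transcription factor of neurons, read 5.24 and 5.55 in vehicle and 4.58 and 4.48 in CLO arrays (-0.86 ± 0.54). Dusp1, a phosphatase of MAP kinases, read 11.04 and 11.33 against 10.28 and 10.70 (-0.69 ± 0.39). Junb, of the AP-1 complex, read 7.10 and 7.14 against 6.69 and 6.55, and Fos of the same complex read 5.0 and 5.15 against 4.81 and 4.63. Npas4 and Fos read below the median of each array. Of the 8 activity genes with a level under 6, 0 were separated upward and 2 downward, beside 12.1% and 20.2% of all clusters there.

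Bdnf, the activity-dependent neurotrophin, lay on the other side, at 8.74 and 8.90 in vehicle and 10.39 and 9.31 in CLO arrays (1.03 ± 0.43). Its first CLO array was the higher one, and without that array the difference was 0.49. Egr3, a zinc finger factor, read 8.29 and 9.05 against 9.22 and 9.35. Nr4a3, an orphan nuclear receptor, read 14.19 and 14.81 against 14.95 and 14.87. Activity genes stood on both sides of the vehicle arrays at this age, with 14.7% separated upward and 20.6% downward, beside 15.4% and 15.3% of all clusters.

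Many promoters of this class carry the cAMP response element, bound by CREB. The 250 bases before the start of 3 activity genes, 2 lower and 1 higher, show the 5-base core of that element. Capitals mark TGACG and its reverse complement CGTCA, the core of that element. Both strands were searched, and the palindrome TGACGTCA holds both. Of the 3 windows only that of Dusp1 holds this whole palindrome. The sequences are RefSeq's for GRCm38.p6, each 5′ to 3′ on the gene's own strand: Npas4 at chr19:4989972-4990221 (minus strand), Dusp1 at chr17:26508473-26508722 (minus strand) and Nr4a3 at chr4:48045055-48045304 (plus strand).
Npas4: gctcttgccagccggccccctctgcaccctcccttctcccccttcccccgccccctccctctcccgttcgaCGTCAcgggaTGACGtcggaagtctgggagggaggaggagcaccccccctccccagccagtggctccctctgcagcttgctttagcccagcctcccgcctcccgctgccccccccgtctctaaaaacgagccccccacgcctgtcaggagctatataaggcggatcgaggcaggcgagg
Dusp1: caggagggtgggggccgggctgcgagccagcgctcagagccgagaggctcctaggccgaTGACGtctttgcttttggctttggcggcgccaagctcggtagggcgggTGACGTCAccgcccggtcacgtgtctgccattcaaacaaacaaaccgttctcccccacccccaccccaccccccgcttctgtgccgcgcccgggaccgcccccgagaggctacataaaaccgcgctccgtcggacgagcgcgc
Nr4a3: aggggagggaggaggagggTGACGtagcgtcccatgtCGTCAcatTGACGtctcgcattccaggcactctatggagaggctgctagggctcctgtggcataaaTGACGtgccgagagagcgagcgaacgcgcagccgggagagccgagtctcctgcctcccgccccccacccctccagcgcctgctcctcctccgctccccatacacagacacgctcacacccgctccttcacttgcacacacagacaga
The core was found in 17.8% of all 32851 promoter windows of this length in the table, and in 1 or more windows of 19.8% of its 27025 genes. Of the 28 measured activity genes with a window, 18 held it (64.3%), including 5 of the 7 separated downward and 2 of the 4 separated upward that had a window. A match counts the core and not the whole element. It is a description of these letters and does not show a site in use.

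Meningeal, fibroblast and collagen genes, which mark the connective tissue around brain and vessels, were lower after CLO in 23 of 28 cases. Of these genes 13 were separated downward and 1 upward, with a median of -0.39, and both counts were the same after quantile normalisation and after centring. The 13 are 46.4% of the list, beside 15.3% of all clusters. The mean over the list was 7.41 and 7.30 in vehicle and 7.05 and 6.73 in CLO arrays. Fmod, described above, belongs to this list.

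Ptgds, which encodes prostaglandin D synthase and is abundant in the leptomeninges, read 15.27 and 13.79 in vehicle and 13.18 and 12.43 in CLO arrays (-1.73 ± 0.63). Slc47a1, an organic cation exporter, read 4.59 and 5.03 against 3.44 and 3.61 (-1.28 ± 0.29). Both of its CLO values lay below the lower quartiles of those arrays (3.85 and 3.91). Slc6a20a, a proline transporter, read 10.22 and 10.00 against 9.54 and 8.91 (-0.89 ± 0.38). All were highest in a vehicle array, and Ptgds differed by 1.48 between the vehicle arrays alone.

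Aldh1a2, which makes retinoic acid, read 6.15 and 6.32 in vehicle and 5.71 and 5.52 in CLO arrays. Slc6a13, a GABA and taurine transporter of the leptomeninges, read 9.0 and 8.44 against 8.20 and 7.26. Dcn, the proteoglycan decorin, read 13.46 and 11.72 against 11.86 and 10.96, with overlap, and it also stands in the CA1 list. Cemip, which degrades hyaluronan, was the only member separated upward, at 6.39 and 6.01 against 6.80 and 6.92.

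The lowest value of the list fell in the second CLO array for 15 of 28 genes and in the first for 10. Without the first CLO array the median was -0.59, and without the second it was -0.38. Of 22 genes of endothelium and pericytes, which share vessels with this tissue, 4 were separated upward and 3 downward, with a median of -0.13. After quantile normalisation 1 was separated upward and 5 downward, and leaving out an array gave medians of -0.15 to 0.01. How much meningeal tissue each array held was not measured, and its part in these values was not tested.

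**Figure D4:**
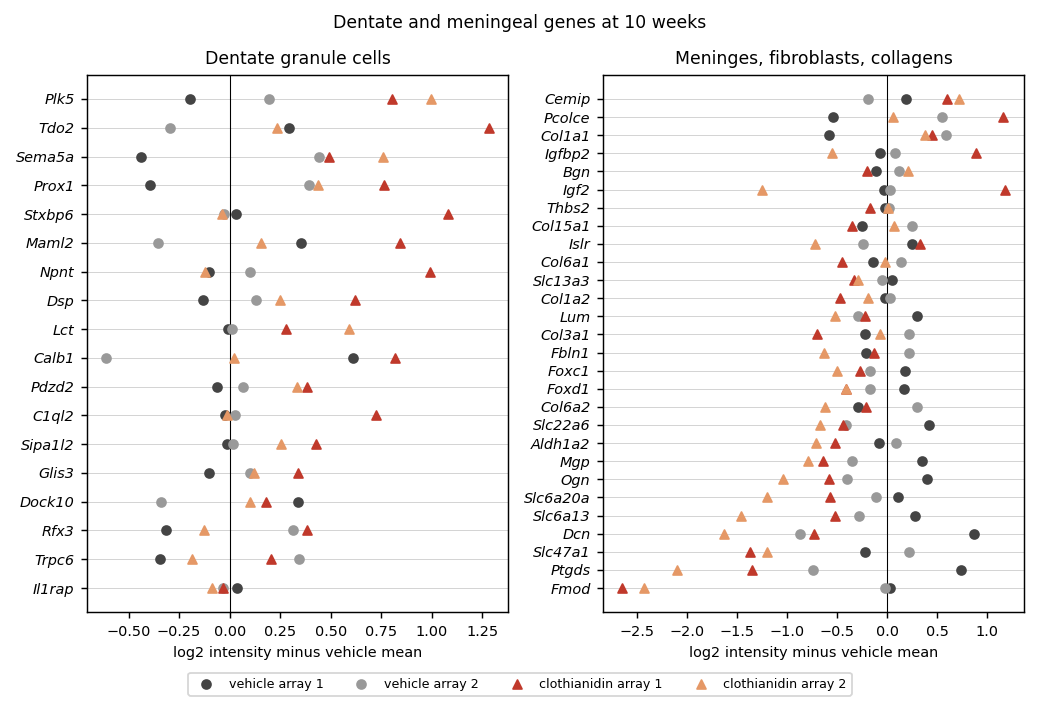
Log2 intensity minus the mean of the 2 vehicle arrays (horizontal axis) for every measured gene of the dentate granule cell list (left) and of the meningeal list (right), ordered by difference, with circles for vehicle and triangles for CLO arrays at 10 weeks. The first CLO array (dark triangle) is the highest in 12 of 18 dentate genes, and both CLO arrays lie left of both vehicle arrays in 13 of 28 meningeal genes.

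Clock genes were higher in 15 of 22 cases, with a median of 0.14. At a level of at least 10, 5 of 12 were separated upward, beside 20.3% of all clusters there. In the whole list 8 were separated upward and 1 downward, beside 15.4% and 15.3% of all clusters. After quantile normalisation the counts were 6 and 1 and the median 0.10, and the median was 0.06 without the first vehicle array and 0.27 without the first CLO array. Besides Nr1d1, Tef, a transcription factor of the clock's output, read 5.05 and 4.90 in vehicle and 5.28 and 5.35 in CLO arrays. Csnk1e, a kinase of the PER proteins, read 11.76 and 12.01 against 12.21 and 12.34, and Clock itself read 13.03 and 13.17 against 13.37 and 13.32. Dbp, a strongly rhythmic output gene, read 14.93 and 13.40 against 15.15 and 14.57, with a vehicle array above a CLO array. The time of day of dissection is not given in the sources used here.

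Among growth factors and receptors, 8 of 35 were separated upward and 7 downward (6 and 8 after quantile normalisation), with a median of 0.00 that was 0.14 without the first CLO array. As deposited these are 22.9% and 20% of the list, beside 15.4% and 15.3% of all clusters. Vegfa, the angiogenic factor, read 10.14 and 10.03 in vehicle and 9.18 and 9.46 in CLO arrays (-0.77 ± 0.28). Fgfr1, a fibroblast growth factor receptor, read 7.17 and 7.59 against 8.47 and 8.13 (0.92 ± 0.32). Igf1r, the receptor of insulin-like growth factor 1, read 7.91 and 8.16 against 7.29 and 7.59. Separated members lay on both sides, as did separated clusters over the whole array.

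Among 22 hormone genes, 5 were separated upward and 6 downward (5 and 4 after quantile normalisation). As deposited these are 22.7% and 27.3%, beside 15.4% and 15.3% of all clusters. Of the 22 genes, 12 had a level under 6, with 1 separated upward and all 6 downward among them. Over all clusters under that level the shares were 12.1% upward and 20.2% downward. Dio3, the deiodinase that inactivates thyroid hormone, read 5.70 and 5.17 in vehicle and 4.54 and 4.21 in CLO arrays (-1.06 ± 0.41). Klf9, a target of thyroid hormone and glucocorticoids, read 13.52 and 13.49 against 13.96 and 13.83. Ghr, the growth hormone receptor, read 6.95 and 6.88 against 7.29 and 7.33. Klf9 also stands in the glucocorticoid list, where 6 of 28 genes were separated upward and 4 downward (5 and 5 after quantile normalisation). That list's shares as deposited were 21.4% and 14.3%.

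Of 26 genes of the perineuronal net and hyaluronan matrix, 9 were separated upward and 2 downward (8 and 2 after quantile normalisation), with a median of 0.12. The shares as deposited were 34.6% and 7.69%, beside 15.4% and 15.3% of all clusters. Leaving out an array gave medians from 0.05, without the second CLO array, to 0.25, without the first. Adamts4, a protease of these proteoglycans, read 5.96 and 5.13 in vehicle and 6.40 and 6.90 in CLO arrays (1.10 ± 0.39). Timp3, an inhibitor of matrix proteases, read 7.89 and 7.88 against 8.60 and 8.23. Acan, which encodes aggrecan, the main proteoglycan of the net, read 5.59 and 5.18 against 4.80 and 4.89. The transcripts of Adamts4 and Acan lay on opposite sides of vehicle, and Acan read below the median of each array. No protein was measured.

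Lipocalins, small carriers of lipophilic molecules, were lower in 17 of 24 cases, with 5 separated upward and 8 downward (6 and 8 after quantile normalisation). The median was -0.26, and it was -0.15 without the first vehicle array and -0.16 without the second CLO array. Of the 24 genes, 20 had a level under 6, with 5 separated upward and 7 downward among them. Over all clusters under that level the shares were 12.1% and 20.2%. Lcn2, an iron-binding acute phase protein, read 8.04 and 3.77 in vehicle and 3.40 and 2.60 in CLO arrays (-2.90 ± 0.95). One vehicle array alone was high, and 3 of the 4 arrays lay below their lower quartile. When the other vehicle array was left out, Lcn2 differed by -5.04 and passed (adjusted p = 0.00504 in limma), since the single high array then stood for vehicle. Without the high vehicle array it differed by -0.77. Obp2a (2.95 and 3.65 against 4.29 and 4.59) and Mup20 (4.63 and 5.18 against 3.94 and 4.09) were separated in opposite directions, and Mup genes are so alike that probes may not tell them apart. Both vehicle values of Obp2a lay below the lower quartiles of their arrays (3.92 and 3.99).

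Germ cell genes were the other list with wide gaps at low levels: 37 of 40 had a mean level under 6, 8 were separated upward and 9 downward (10 and 9 after quantile normalisation), and the median was 0.03, or -0.13 without the second CLO array. Spata9 read 4.00 and 3.84 in vehicle and 5.65 and 5.48 in CLO arrays. Iho1, a factor of meiotic recombination, read 5.52 and 6.12 against 4.53 and 4.55. The counts lay on both sides in nearly equal number, beside 12.1% upward and 20.2% downward for all clusters under a level of 6.

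The difference between the effect at 10 weeks and that at 3 weeks passed for 0 of 22206 clusters (0%) in limma, with a lowest adjusted p of 0.998 and 695 clusters at an unadjusted p under 0.05. Groups were separated at both ages in the same direction in 6.88% of all clusters and in opposite directions in 3.83%. Of the 115 genes examined by name, 12 were separated at both ages in opposite directions. These are 12 of the 99 that were separated at 10 weeks, beside 850 of all 6807 clusters separated at that age (12.5%). Prxl2b was higher at both ages, by 0.73 at 10 weeks and 0.71 at 3 weeks, and Dhx40 was lower at both, by -0.69 and -0.74. The scaffold list had medians of 0.23 and 0.19 at 10 and 3 weeks, the potassium channel list 0.29 and 0.16, the dentate list 0.43 and 0.18 and the meningeal list -0.39 and -0.20. The members were split more evenly at 3 weeks. Scaffold genes were then 21 higher and 9 lower (26 and 4 at 10 weeks), and potassium channel genes 15 and 11 (22 and 4). Dentate genes were 10 and 8 (17 and 1), and meningeal genes 11 and 17 (4 and 23). The list medians of 3 weeks were not computed with an array left out.

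Choroid plexus genes, kept apart from all lists above, followed 1 array and not the groups at 10 weeks. The choroid plexus is the secretory epithelium of the ventricles, next to the hippocampus. Ttr, which encodes transthyretin, read 6.86 and 7.37 in vehicle and 18.25 and 5.24 in CLO arrays. Clic6, an intracellular chloride channel family member, read 4.83 and 5.36 against 11.11 and 5.03. Kcnj13, an inward rectifier of this epithelium, read 6.65 and 6.27 against 11.99 and 5.56. For each, the second CLO array lay below at least 1 vehicle array. At 3 weeks 1 array of each group read high too: Ttr read 19.16 in the second vehicle array and 18.82 in the first CLO array, and Clic6 read 11.02 and 10.30. Both arrays are in the fit and in the medians of 3 weeks given above, and the part of this tissue in those values was not tested.

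The first CLO array lay above the other 3 in 23 of 28 choroid plexus genes, and by at least 1 log2 unit in 18. The second CLO array lay below both vehicle arrays in 17 and above both in 3. The list mean was 5.41 and 5.36 in vehicle and 7.66 and 5.08 in CLO arrays. The median difference was 0.84 with all 4 arrays and -0.26 without the first CLO array. In the ependyma list, the ciliated lining beside this epithelium, 2 of 14 genes were separated in each direction under both scalings, and the list mean was 5.05 and 5.09 against 5.14 and 4.72. Without the first CLO array the difference of 9 of the 115 named genes changed sign, namely Ttr, Clic6, Kcnj13, Kl, Kcne2, Stxbp6, Npnt, Chrna4 and Kcnb2.

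**Figure D5:**
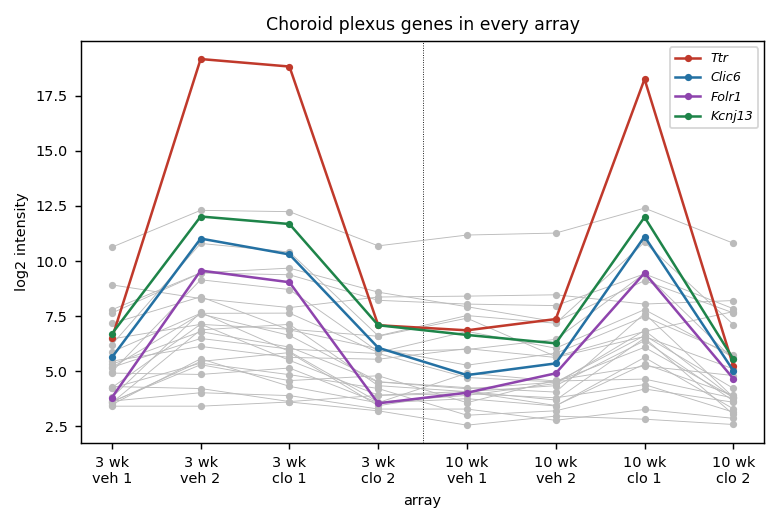
Log2 intensity (vertical axis) of the 28 choroid plexus genes in all 8 arrays, with 4 genes coloured and the others in grey; lines join the values of 1 gene and carry no order. Ttr reads 18.25 in the first CLO array at 10 weeks and 5.24 to 7.37 in the other arrays of that age.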

How the data were processed

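Hippocampal RNA was measured on whole-transcript arrays, 1 array per sample and 2 per group, from 250 ng of RNA whose integrity number exceeded 7. The authors deposited log2 intensities for each transcript cluster on each array. RMA is the method named in the submitters' processing notes, and joint normalisation of the 8 arrays is neither stated nor denied in the sources used here. The log2 values were used as deposited, with no filter on dim clusters. Symbols came from the platform annotation, checked against the RefSeq gene table of GRCm38.p6.

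All 8 arrays entered 1 fit, with a mean for each group, in limma 3.58.1 (R 4.3.3), with the default prior, 4 residual degrees of freedom, two-sided tests and Benjamini-Hochberg adjustment over all clusters. The model was run on simulated arrays with normal noise and known shifts. That simulation held no outlying array and no lean by level, so it cannot show how the model deals with these. Precision is limited by the number of arrays. Gene lists (45, with 1112 of 1213 entries measured) use the brightest cluster per gene and are described by counts and medians, with no set test.

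The groups compared, the members and the lists were chosen with earlier results of these data known. Genes were named by the gap between the groups: the 12 widest gaps in each direction at or above the median level (without choroid plexus or ependyma genes, predicted genes, chemosensory receptors or small RNAs), up to 6 members a list, and Ttr, Lcn2, Fmod and Bdnf. Outside this rule, after their values were seen, the text names Kcnd2, Kcnb2, Kcnc2, Kcnn3, Kcnt1, Prox1, Stxbp6, Npnt, Slc6a13, Dcn, Egr3, Nr4a3, Dbp, Chrna4, Chrnb2, Clic6, Kcnj13, Kl and Kcne2, and Neurod6 as a tissue marker. The alternatives were other priors, only the arrays of 1 age, array weights, a block for the replicate number, a level filter, quantile normalisation, median centring, averaging a gene's clusters, the Ttr level as a covariate, other thresholds, and leaving out each array. The counts of separated clusters and list members under quantile normalisation and centring were added after seeing the data.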

Additional observations from a re-analysis of the deposited data

Results flagged for a closer look

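Of the 115 named genes, 12 were separated at both ages in opposite directions, and the values given here are the effect at 10 weeks minus the effect at 3 weeks on the log2 scale. None passed when this difference was tested (adjusted p = 0.998 in limma for each). Over all clusters 3.83% were separated at both ages in opposite directions, but most of the named genes were chosen for their separation at 10 weeks. Of the 99 named genes separated at that age these are 12, beside 12.5% of the 6807 clusters separated at that age.

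Prkcq gave 1.34 ± 0.39 (SE), from 0.87 at 10 weeks and -0.48 at 3 weeks. The zinc finger gene Zfp976 gave 2.02 ± 0.49, from 1.00 and -1.01, the most even reversal of those named. Obp2a, an odorant-binding protein of the lipocalin family, gave 2.04 ± 0.51, from 1.14 and -0.90. Its vehicle values at 10 weeks, 2.95 and 3.65, lay below the lower quartiles of those arrays (3.92 and 3.99). Chrnd and Chrna1, subunits of the muscle nicotinic receptor, gave 1.44 and 0.50, and Chrng gave -0.54; all 3 read below the lower quartile of all 4 arrays at 10 weeks.

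In the other direction Clrn1 gave -1.75 ± 0.44, from -1.25 at 10 weeks and 0.50 at 3 weeks. At 3 weeks its groups were only 0.01 apart, with 6.78 and 6.15 in vehicle and 7.14 and 6.79 in CLO arrays. Fosl2, an AP-1 factor of the activity list, gave -1.49 ± 0.39, from -0.58 and 0.90. Hormad1, a meiotic chromosome axis protein gene, gave -1.92, Alkbh3 gave -1.25 and Dennd6b gave -1.12. The gap between the groups at 3 weeks was 0.05 for Alkbh3 and 0.19 for Dennd6b. Lcn2 gave -3.43 ± 1.34, and this value rests on 1 vehicle array of 10 weeks that read 8.04.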

How the results depend on the processing

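The count of 0 clusters past the threshold at 10 weeks was the same under every alternative run except leaving out the second vehicle array of 10 weeks, which gave 1, so that the range over left-out arrays was 0 to 1; the difference between the ages behaved alike (0 to 1). The cluster was Lcn2 both times (-5.04, adjusted p = 0.00504, and -5.57, adjusted p = 0.0211, in limma), and the vehicle group of 10 weeks then held only its high array, assumed to vary like the others. The count at 3 weeks was 0 under each alternative. The 820 clusters at an unadjusted p under 0.05 became 326 when only clusters at or above the median level were tested, which are fewer, and 107 at an unadjusted p under 0.01; leaving out an array gave 617 to 1086. With the replicate block the adjusted count was 0 and the unadjusted count 722. The deviations of arrays of the same number correlated at r = 0.138 at 10 weeks and -0.0427 at 3 weeks, and the block changed no call. These correlations cannot tell whether such arrays share a litter, day or batch, since the sources used here do not give it. The dentate median of 0.43 became 0.20 with the Ttr covariate and 0.14 to 0.56 when an array was left out. The potassium channel median of 0.29 became 0.22 after quantile normalisation and 0.18 to 0.34 without an array. The meningeal median ranged from -0.59 to -0.34, the scaffold median from 0.15 to 0.36 and the choroid plexus median from -0.26 to 1.54 over left-out arrays, and the latter was 0.02 with the Ttr covariate. The causes were not tested. Of the 115 named genes, quantile normalisation changed the sign of 1 (Chrnb2) and the Ttr covariate that of 3 (Ttr, Chrna4 and Kcnt1). Without the first vehicle array 3 changed sign (Chrna4, Chrnb2 and Kcnc2), without the second 2 (Dbp and Kcnt1), without the first CLO array 9 and without the second 1 (Chrnb2).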
